A study of Saccharomyces cerevisiae with 18 samples.

Results

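Transcript levels of 10 Saccharomyces cerevisiae genes of pyrimidine synthesis were followed over 3 strains and 2 glucose levels. The genes were chosen by name from the pathway, namely URA1 to URA8, URA10 and the regulator gene PPR1. All 10 were measured among the 5449 genes of the table, each by 1 probe set, and none lies on chromosome VIII. Every strain lacked chromosomal SNF1, which encodes the yeast relative of mammalian AMP-activated protein kinase (AMPK), and carried a plasmid in its place. The plasmid of the reference strain (Snf1) encoded HA-tagged Snf1. That of the Alpha1 strain encoded HA-Alpha1, in which the AMPK Alpha1 catalytic domain was joined to the regulatory part of Snf1. That of the T210A strain encoded HA-T210A, a Snf1 with Ala in place of Thr210, the residue phosphorylated on activation. Cells grew aerobically from 40 g/L glucose in 1-litre bioreactors and were collected with 15 to 20 g/L glucose in the medium (called high) or with 5 g/L (called low). The labels describe sampling at steady state, yet glucose had dropped from its initial value, so the culture mode is unclear, and glucose level and growth stage cannot be told apart in the low against high comparisons. Each of the 6 groups had 3 arrays, which the labels call biological replicates, so p-values measure the spread between replicates, pooled over the groups. The marker gene and the promoter of the plasmids and the parent strain are not given in the sources used here.

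The pathway makes UMP in steps that begin with Ura2, which forms carbamoyl phosphate and carbamoyl aspartate and is inhibited by UTP. Ura4 (dihydroorotase) and Ura1 (dihydroorotate dehydrogenase) lead to orotate, Ura5 and its isozyme Ura10 (orotate phosphoribosyltransferases) to OMP, and Ura3 (OMP decarboxylase) to UMP. Ura6 converts UMP to UDP, and the isozymes Ura7 and Ura8 convert UTP to CTP. Ppr1 is a zinc-cluster activator that raises transcription of URA1, URA3, URA4 and URA10 when pyrimidines are scarce. URA3 is also a common selection marker on yeast plasmids, so it is described here both within the pathway and against the other 9 genes.

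Values are log2 signals, so a difference of 1 is a 2-fold change. Differences are given ± SE from limma's fit to all 18 arrays, and called means that the p adjusted over 5449 genes was under 0.05. Within a group, arrays had a correlation across genes of 0.978 to 0.998, and the median SD of a gene was 0.221 in Alpha1 at low glucose against 0.104 to 0.125 in the other 5 groups. The fit pools the spread of a gene over all groups, so an SE does not reflect the spread of the compared arrays alone. Fits of the compared groups alone are among the alternatives below. The targeted gene SNF1 had signals of 6.93 to 9.52 on the Snf1 and T210A arrays and 12.30 to 13.17 on the Alpha1 arrays. Its probe set may read plasmid transcripts, so it does not check the deletion. Genes of chromosome VIII stood 0.74 higher in T210A than in Snf1 at high glucose (median of 261 genes). An array averages a culture, so a change in all cells and a change in a share of them cannot be told apart.

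**Figure D1:**
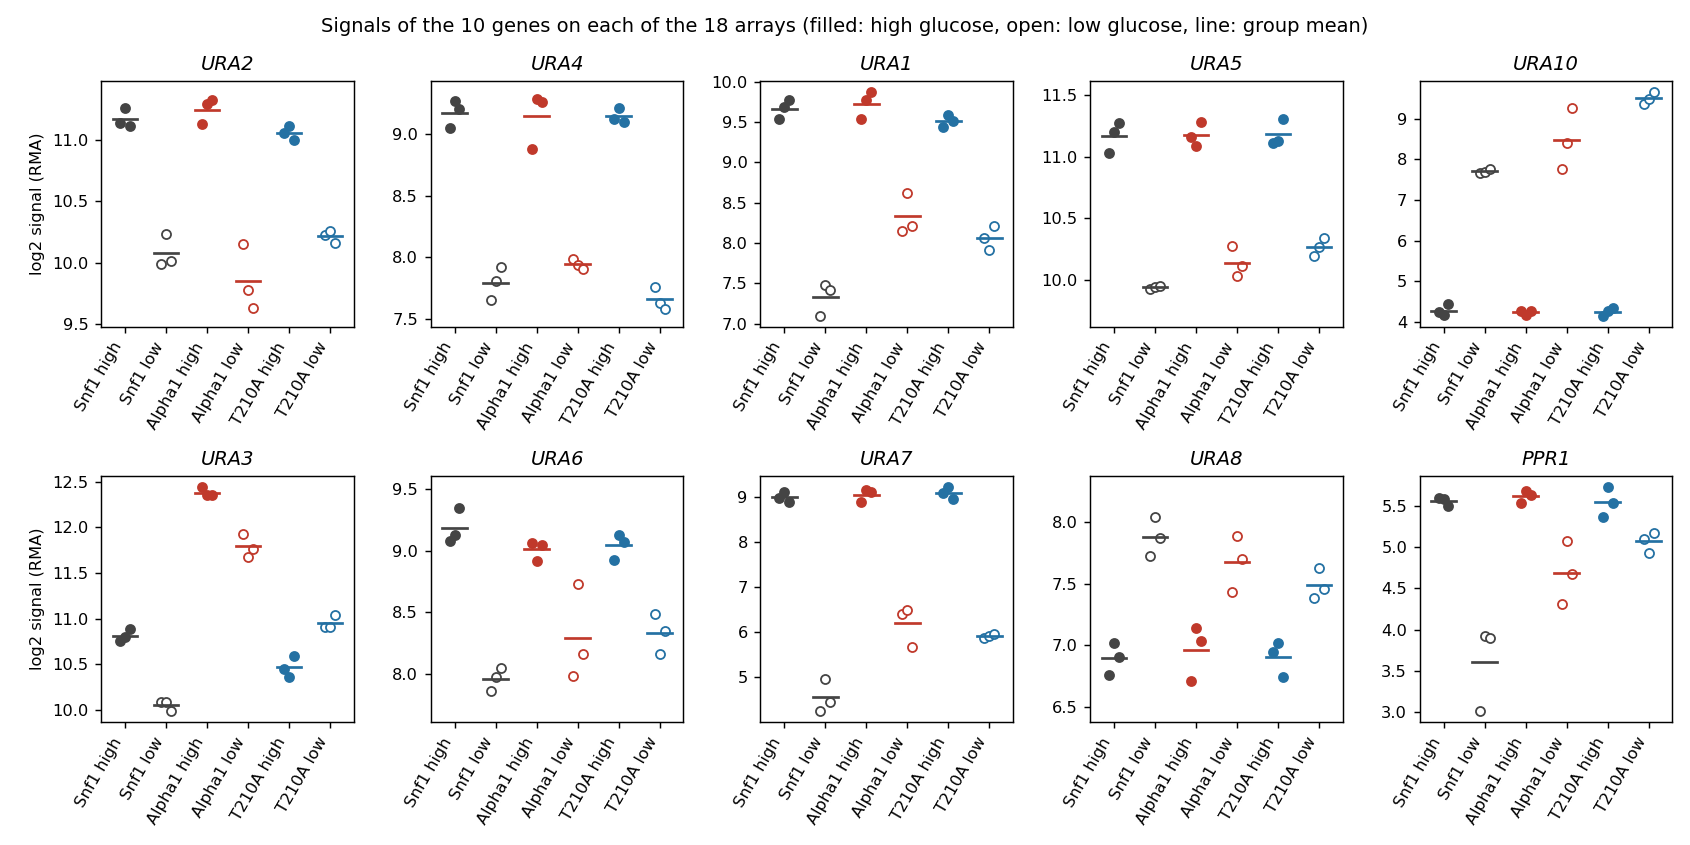
Log2 signal of the 10 genes on each of the 18 arrays, 1 panel per gene, with its own vertical axis. Points are arrays (filled at high and open at low glucose), lines are group means of 3 arrays. At high glucose the 3 strains lie together for every gene except URA3, whose Alpha1 arrays lie at 12.35 to 12.44.

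At high glucose URA3 was the 1 gene of the 10 that differed between strains by limma's test. Its signals were 10.75, 10.79 and 10.89 on the Snf1 arrays, 12.44, 12.35 and 12.35 on the Alpha1 arrays, and 10.45, 10.36 and 10.59 on the T210A arrays. No 2 of these groups overlapped, with Alpha1 highest and T210A lowest. URA3 was 2.97-fold higher in Alpha1 than in Snf1 (1.57 ± 0.07, adjusted p = 1.74e-08), where 0.918% of all genes were called (0.312% higher and 0.606% lower). It ranked 4th from the highest of the 5449 differences in that comparison. It was 3.77-fold higher in Alpha1 than in T210A (1.91 ± 0.07, adjusted p = 1.34e-09), where 6.31% of genes were called (1.5% higher and 4.81% lower). Between T210A and Snf1 it was 1.27-fold lower in T210A (-0.34 ± 0.07, adjusted p = 0.0114), where 4.18% of genes were called (3.56% higher and 0.624% lower). This smallest URA3 difference was not called without Snf1_high replicate 3 (adjusted p = 0.0607), without T210A_high replicate 2 (0.0685), with arrays centred on their medians (0.141) or in a fit of these groups alone (0.0883). Its adjusted p ran from 0.0026 to 0.141 over all alternatives.

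The other 9 genes stayed close to the reference in both mutants at high glucose. Their differences from Snf1 lay between -0.18 (URA6) and 0.08 (URA2) in Alpha1 and between -0.15 (URA1) and 0.10 (URA7) in T210A. Of these 9 genes, 0 were called by limma in each of the 3 strain comparisons, 0 had an unadjusted p under 0.05, and 0 were called under any alternative. The 95% intervals of the 9 differences reached from -0.59 to 0.53 for Alpha1 and from -0.58 to 0.53 for T210A, and the interval of URA10 was the widest. With 3 arrays a group, differences within a gene's interval remain possible. The intervals use a spread per gene that is shared by all 6 groups. The URA10 SD at high glucose was 0.14 in Snf1, 0.06 in Alpha1 and 0.09 in T210A. It was 0.76 in Alpha1 at low glucose, so the URA10 width does not reflect the high-glucose arrays alone. URA6 signals were 9.06, 8.92 and 9.05 in Alpha1 and 9.08, 9.13 and 9.35 in Snf1, which did not overlap but did not pass the test (-0.18 ± 0.15). In that comparison 14.3% of all genes had groups that did not overlap. The same held for URA2 alone among the 9 between T210A and Snf1 and between Alpha1 and T210A, where the shares over all genes were 18.8% and 25%.

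**Figure D2:**
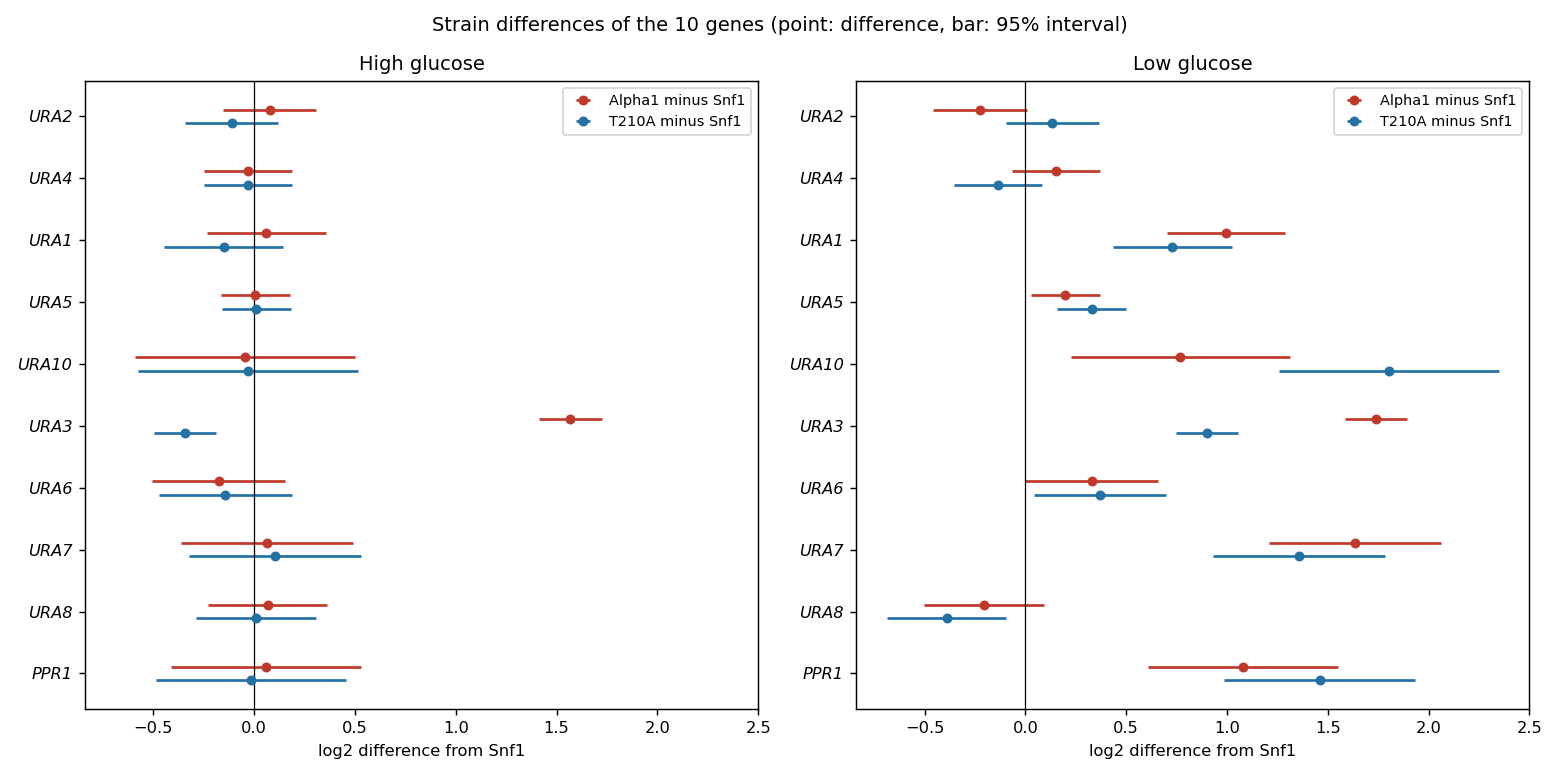
Log2 differences of Alpha1 and T210A from Snf1 for the 10 genes at high (left) and low (right) glucose. Points are differences of group means of 3 arrays and bars are 95% intervals. At high glucose URA3 stands alone at 1.57 for Alpha1. At low glucose URA1, URA3, URA5, URA6, URA7, URA10 and PPR1 lie above 0 in both mutants. Of these, URA5 in Alpha1 and URA6 in both mutants were not called.

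The second question is how the pathway differed between low and high glucose within each strain. In Snf1 all 10 genes were called, 8 lower and 2 higher at low glucose, where 67.3% of all genes were called (34.7% higher and 32.7% lower). In Alpha1 again all 10 were called, 8 lower and 2 higher (63.5% of all genes, 34.3% higher and 29.2% lower). In T210A 9 were called, 6 lower and 3 higher (70.5% of all genes, 37.7% higher and 32.8% lower). For all 10 genes the glucose groups did not overlap in any strain, as for 74.2% of all genes in Snf1, 60.2% in Alpha1 and 76.7% in T210A. Calls and separate groups were thus common in the background of these comparisons. The median of the 10 differences was -1.23 in Snf1, -0.98 in Alpha1 and -0.78 in T210A, against 0.00 to 0.04 over all genes.

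The first steps fell in each strain. URA2, encoding the first enzyme and the point of feedback control, had signals of 11.13, 11.25 and 11.11 at high and 9.99, 10.23 and 10.02 at low glucose in Snf1. The groups did not overlap, and the difference was -1.09 ± 0.11 (adjusted p = 6.50e-07). It was -1.39 ± 0.11 in Alpha1 and -0.84 ± 0.11 in T210A. URA4 fell by 1.38 in Snf1, 1.20 in Alpha1 and 1.49 in T210A. Neither of the 2 mutants' URA4 responses differed from that of Snf1 by the test (0.18 ± 0.14 and -0.11 ± 0.14), with 95% intervals of -0.13 to 0.49 and -0.41 to 0.20.

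URA1, the dihydroorotate dehydrogenase gene, fell most in the reference strain. Its signals went from 9.53, 9.69 and 9.77 to 7.10, 7.48 and 7.42 in Snf1, from 9.54, 9.77 and 9.87 to 8.15, 8.62 and 8.21 in Alpha1, and from 9.43, 9.59 and 9.51 to 8.06, 7.92 and 8.21 in T210A. Every low-glucose array of Alpha1 and T210A lay above every low-glucose array of Snf1. The fall was 5.03-fold in Snf1 (-2.33 ± 0.14, adjusted p = 2.72e-09), 2.63-fold in Alpha1 and 2.73-fold in T210A. The responses differed from that of Snf1 by 0.93 ± 0.19 in Alpha1 (adjusted p = 0.0051) and by 0.88 ± 0.19 in T210A (adjusted p = 0.0026). Such response differences were called for 13.7% of all genes in Alpha1 (9.32% higher) and 39.5% in T210A (21.2% higher). Among the 10 genes they were called higher for 3 in Alpha1 and for 6 in T210A, with 0 lower in either by limma (unadjusted p under 0.05 for 5 and 7 of the 10).

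The orotate phosphoribosyltransferase genes moved in opposite directions. URA5 fell in the 3 strains, by 1.23 ± 0.08 in Snf1, 1.04 ± 0.08 in Alpha1 and 0.91 ± 0.08 in T210A. URA10 had signals of 4.23, 4.16 and 4.43 at high and 7.68, 7.68 and 7.76 at low glucose in Snf1. In Alpha1 they were 4.26, 4.17 and 4.27 at high and 7.76, 8.40 and 9.27 at low glucose. In T210A they were 4.15, 4.26 and 4.33 at high and 9.38, 9.50 and 9.66 at low glucose. The high-glucose arrays of all strains lay together, while at low glucose the Alpha1 arrays lay far apart and the T210A arrays were all above them. The rise was 10.8-fold in Snf1 (3.43 ± 0.25, adjusted p = 3.03e-08), 18.9-fold in Alpha1 (4.24 ± 0.25) and 38.4-fold in T210A (5.26 ± 0.25). The T210A rise exceeded that of Snf1 by 1.83 ± 0.36 (adjusted p = 0.0012). The Alpha1 rise exceeded it by 0.81 ± 0.36, which did not pass (adjusted p = 0.163). That value was 1.17 without Alpha1_low replicate 1 (adjusted p = 0.0051) and 0.42 without Alpha1_low replicate 3 (adjusted p = 0.170). URA5 and URA10 encode related enzymes, and how far their probe sets read each other's transcripts was not tested, although they moved oppositely.

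The glucose response of URA3 had opposite signs in different strains. It fell in Snf1 from 10.75, 10.79 and 10.89 to 10.09, 10.08 and 9.99 (-0.76 ± 0.07, adjusted p = 4.19e-07). It fell in Alpha1 from 12.44, 12.35 and 12.35 to 11.93, 11.68 and 11.77 (-0.59 ± 0.07, adjusted p = 7.51e-06). In T210A it rose from 10.45, 10.36 and 10.59 to 10.91, 10.91 and 11.04 (0.49 ± 0.07, adjusted p = 3.69e-05). The groups did not overlap in any strain, and T210A was the 1 strain in which low glucose was the higher level. The T210A response differed from that of Snf1 by 1.25 ± 0.10 (adjusted p = 1.00e-06) and from that of Alpha1 by 1.08 (Alpha1 minus T210A -1.08 ± 0.10, adjusted p = 1.04e-05, where 20.3% of all genes were called, 9.41% lower). The Alpha1 and Snf1 responses did not differ by the test (0.17 ± 0.10, adjusted p = 0.321, interval -0.05 to 0.39), but with quantile normalization the difference was 0.50 (adjusted p = 0.0017).

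Beyond UMP, URA6 and URA7 fell and URA8 rose. URA6, the UMP kinase gene, fell by 1.23 ± 0.15 in Snf1, 0.72 ± 0.15 in Alpha1 and 0.71 ± 0.15 in T210A. URA7, the main CTP synthase gene, had signals of 8.97, 9.10 and 8.87 at high and 4.26, 4.96 and 4.46 at low glucose in Snf1. In Alpha1 low-glucose signals were 6.41, 6.49 and 5.68, and in T210A they were 5.86, 5.92 and 5.96. All 6 of these mutant arrays lay above all 3 Snf1 arrays at low glucose, whereas at high glucose the strains overlapped. The fall was 21.4-fold in Snf1 (-4.42 ± 0.20, adjusted p = 1.90e-10), the 6th lowest of the 5449 differences in that strain. It was 7.21-fold in Alpha1 (-2.85 ± 0.20) and 8.99-fold in T210A (-3.17 ± 0.20). The responses differed from that of Snf1 by 1.57 ± 0.28 in Alpha1 (adjusted p = 0.0020) and 1.25 ± 0.28 in T210A (adjusted p = 0.0029). URA8, the second CTP synthase gene, rose by 0.99 ± 0.14 in Snf1, 0.72 ± 0.14 in Alpha1 and 0.59 ± 0.14 in T210A, with no overlap between glucose levels in any strain.

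The regulator gene PPR1 was lower at low glucose in Snf1 and Alpha1. Its signals went from 5.60, 5.58 and 5.50 to 3.01, 3.92 and 3.90 in Snf1 (-1.95 ± 0.22, adjusted p = 2.51e-06). The first of these low values lies under 3.25, the line used here for signals close to the floor (the mean of the arrays' lowest signals plus 1), so the size of the fall is uncertain. In Alpha1 the signals went from 5.54, 5.68 and 5.63 to 4.31, 5.08 and 4.68 (-0.93 ± 0.22, adjusted p = 0.0021). In T210A they were 5.37, 5.73 and 5.54 at high and 5.10, 4.93 and 5.18 at low glucose, a difference of -0.47 ± 0.22 that did not pass (adjusted p = 0.0687) although the groups did not overlap. The T210A difference was called with the replicate number as a block (adjusted p = 0.0380), with quantile normalization (-0.75, adjusted p = 4.15e-04), with arrays centred on their medians (-0.59, adjusted p = 0.0044) and when T210A arrays alone were fitted (0.0131). Over the alternatives its adjusted p lay between 4.15e-04 and 0.193. The T210A response of PPR1 differed from that of Snf1 by 1.48 ± 0.31 (adjusted p = 0.0020). The Alpha1 response differed by 1.02 ± 0.31 (adjusted p = 0.0441), a call that ended in 9 of the 12 fits with 1 array left out, with adjusted p-values up to 0.102.

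**Figure D3:**
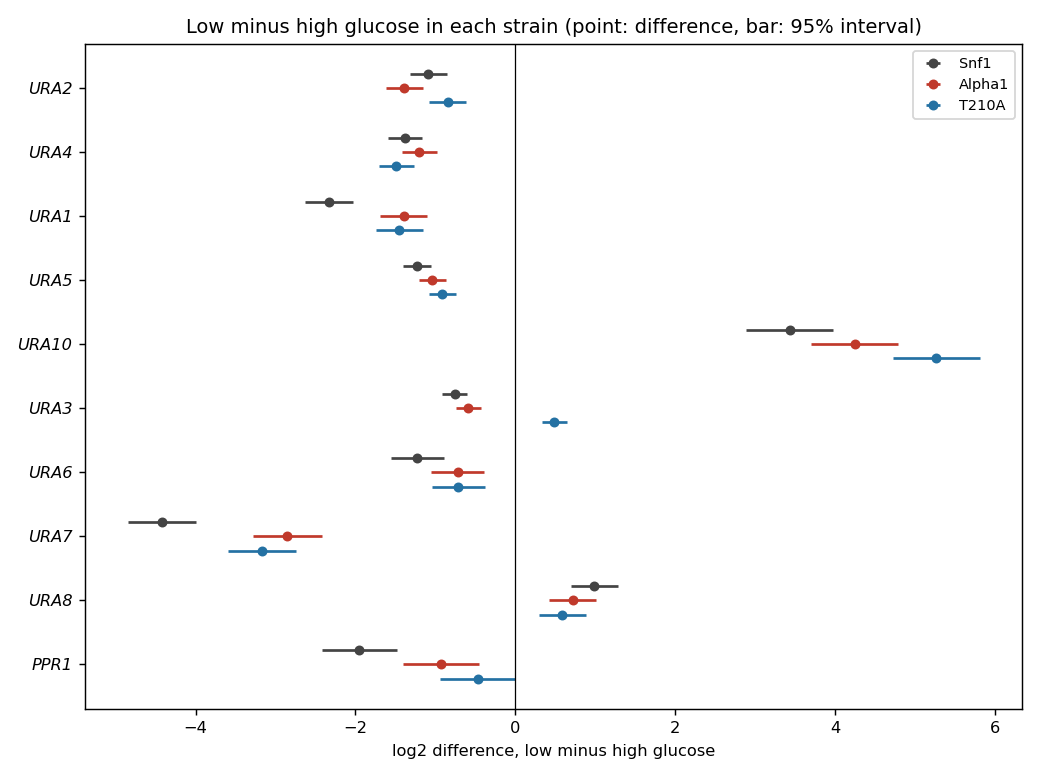
Log2 difference between low and high glucose for the 10 genes in each strain. Points are differences of group means of 3 arrays and bars are 95% intervals. URA10 and URA8 lie above 0 in the 3 strains, and URA3 lies above 0 in T210A and below 0 in Snf1 and Alpha1. The other genes lie below 0 in the 3 strains. Of these, URA1, URA5, URA6, URA7 and PPR1 lie lowest in Snf1, URA2 in Alpha1 and URA4 in T210A.

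At low glucose the strains differed at more of the 10 genes than URA3. Against Snf1, Alpha1 had 5 genes higher and 0 lower (30% of all genes, 17% higher and 12.9% lower), and T210A had 6 higher and 1 lower (56.3% of all genes, 29.7% higher and 26.5% lower). The groups did not overlap for 6 of the 10 in Alpha1 (33.7% of all genes) and for 8 in T210A (67.4%). The genes higher in both mutants were URA1, URA3, URA7, URA10 and PPR1. The mutants were compared with the same 3 Snf1 arrays, so these lists are not independent of each other. URA7 was 3.10-fold higher in Alpha1 (1.63 ± 0.20, adjusted p = 3.45e-05) and 2.56-fold higher in T210A (1.36 ± 0.20, adjusted p = 5.43e-05). URA1 was 1.99-fold higher in Alpha1 (0.99 ± 0.14) and 1.66-fold higher in T210A (0.73 ± 0.14). PPR1 was 2.11-fold higher in Alpha1 (1.08 ± 0.22, adjusted p = 0.0022) and 2.75-fold higher in T210A (1.46 ± 0.22, adjusted p = 7.23e-05), each against a Snf1 mean of 3.61.

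URA10 was 3.49-fold higher in T210A than in Snf1 at low glucose (1.80 ± 0.25, adjusted p = 3.85e-05). In Alpha1 it was 1.70-fold higher (0.77 ± 0.25, adjusted p = 0.0341), a call that ended without any 1 of 5 of the 6 arrays (adjusted p 0.0620 to 0.0820). It was 0.37 without Alpha1_low replicate 3 (adjusted p = 0.0695) and 1.13 without Alpha1_low replicate 1 (adjusted p = 5.29e-04). The Alpha1 calls of URA10 and PPR1 also ended when just Alpha1 and Snf1 at low glucose were fitted, with adjusted p-values of 0.283 and 0.113. URA5 was 0.33 ± 0.08 higher (adjusted p = 0.0029) and URA8 0.39 ± 0.14 lower (adjusted p = 0.0262) in T210A. The URA8 call ended without any of 4 arrays, with adjusted p-values up to 0.105, and the URA5 call ended with arrays centred on their medians (0.0535).

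Alpha1 and T210A were also compared with each other at low glucose. URA3 was 1.79-fold higher in Alpha1 (0.84 ± 0.07, adjusted p = 1.20e-06) and URA10 2.05-fold lower (-1.03 ± 0.25, adjusted p = 0.0051), where 41.5% of all genes were called (20.8% in each direction). The groups did not overlap for 4 of the 10 (43.5% of all genes). URA2 was 0.36 ± 0.11 lower in Alpha1 (adjusted p = 0.0163) and URA4 0.29 ± 0.10 higher (adjusted p = 0.0355). The other 6 genes did not pass. The URA4 call ended in 5 of the 6 fits with 1 array left out and the URA2 call in 2 of them, and URA10 and URA2 were not called in a fit of these groups alone (adjusted p = 0.124 and 0.136).

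The 4 known Ppr1 targets differed in the direction of their glucose responses. From high to low glucose in Snf1 the differences were -2.33 for URA1, -1.38 for URA4, -0.76 for URA3 and 3.43 for URA10, beside -1.95 for PPR1 itself. In T210A they were -1.45, -1.49, 0.49 and 5.26, beside -0.47 for PPR1. At low glucose 3 of the 4 targets (URA1, URA3 and URA10) were higher and 0 lower in each mutant than in Snf1, as was PPR1, with the all-gene shares given above and the limits of the Alpha1 call of URA10 as stated. The fourth, URA4, differed from Snf1 by 0.15 ± 0.10 in Alpha1 and -0.14 ± 0.10 in T210A and was not called. Signals were thus higher at low glucose for 1 of these 4 targets in Snf1 and Alpha1 and for 2 in T210A.

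URA3 was set against its chromosomal neighbours, since a gene present on a plasmid can be read together with its chromosomal copy. The neighbours were the 4 measured genes on each side of URA3 on chromosome V. At high glucose 0 of these 8 genes were called by limma between Alpha1 and Snf1, where 0.918% of all genes were called. Of the 8 genes, 0 had an unadjusted p under 0.05 there. Among the 8, MMS21 lay under 3.25 on all arrays, close to the floor, so its difference says little. Their differences lay between -0.17 and 0.19, against 1.57 for URA3. The nearest measured genes were GEA2, encoding a guanine nucleotide exchange factor of the Golgi, and TIM9, encoding a mitochondrial import chaperone. GEA2 signals were 6.66, 6.72 and 6.60 in Snf1 and 6.60, 6.71 and 6.66 in Alpha1 (-0.00 ± 0.07). TIM9 differed by 0.06 ± 0.21 with overlapping groups.

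At low glucose 2 of the 8 neighbours were higher and 1 was lower in Alpha1 than in Snf1 (17% and 12.9% of all genes). These were PMP2, a regulator gene of the plasma membrane proton pump (0.62 ± 0.09, adjusted p = 1.87e-04), GEA2 (0.32 ± 0.07, adjusted p = 0.0052) and RIP1, the Rieske iron-sulfur protein gene (-0.42 ± 0.10, adjusted p = 0.0077). URA3 stood at 1.74 ± 0.07 (adjusted p = 1.73e-09) in the same comparison, with signals of 11.93, 11.68 and 11.77 in Alpha1 against 10.09, 10.08 and 9.99 in Snf1. Between T210A and Snf1 at low glucose URA3 was 0.90 ± 0.07 higher, PMP2 1.08 ± 0.09 higher and TIM9 0.72 ± 0.21 lower (adjusted p = 0.0107). The third called neighbour YEL025C was 0.65 ± 0.15 higher (adjusted p = 0.0020). Of the 8 neighbours, 2 were thus higher and 1 lower in T210A (29.7% and 26.5% of all genes). Whether the URA3 signal of any strain includes a plasmid copy was not tested, and strain and plasmid cannot be told apart in this design.

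**Figure D4:**
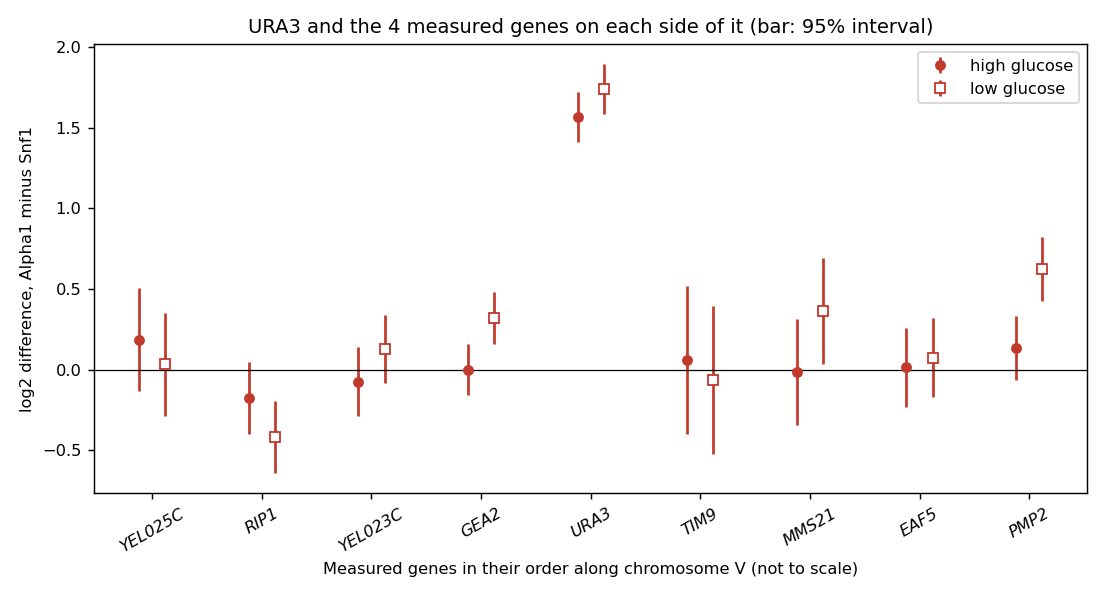
Log2 difference of Alpha1 from Snf1 for URA3 and the 4 measured genes on each side of it, in chromosomal order, at high (filled) and low (open) glucose. Points are differences of group means of 3 arrays and bars are 95% intervals. URA3 lies at 1.57 and 1.74, above all 8 neighbours, whose highest value is 0.62 (PMP2 at low glucose).

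The 5 genes most like URA3 by Pearson correlation over the 18 arrays were DET1 (0.89), SNF1 (0.84), ARE2 (0.78), DAL7 (0.76) and TRS33 (0.75). These are descriptions over arrays that fall into 6 groups of 3. DET1 signals were 12.29 to 13.32 on the Alpha1 arrays and 8.06 to 8.62 on all others. SNF1 and DET1 were the 2 genes highest in Alpha1 against Snf1 at high glucose (5.19 ± 0.13 and 4.22 ± 0.11). In T210A at high glucose SNF1 differed from Snf1 by -0.10 ± 0.13 and DET1 by -0.01 ± 0.11, beside the URA3 value of -0.34. At low glucose in T210A SNF1 was 0.74 ± 0.13 higher (adjusted p = 3.24e-04), DET1 0.34 ± 0.11 higher (adjusted p = 0.0140) and URA3 0.90 higher. SNF1 rose from high to low glucose in the 3 strains, by 1.40 in Snf1, 0.58 in Alpha1 and 2.23 in T210A. URA3 fell in Snf1 and Alpha1.

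Other genes often used as selection markers were set beside URA3. The 6 measured were HIS3, LEU2, LYS2, ADE2, MET17 and CAN1. At high glucose 0 of them were called by limma between Alpha1 and Snf1 (0.918% of all genes) or T210A and Snf1 (4.18%). In either comparison 0 had an unadjusted p under 0.05. LEU2 signals were 11.24, 11.45 and 11.44 in Snf1 and 11.40, 11.38 and 11.37 in Alpha1. HIS3 signals were 10.34, 10.37 and 10.51 in Snf1 and 10.54, 10.41 and 10.44 in Alpha1. The groups overlapped for both. At low glucose 1 was higher and 1 lower in Alpha1 (17% and 12.9% of all genes), and 2 were higher and 2 lower in T210A (29.7% and 26.5%). HIS3, a histidine synthesis gene, was 4.39-fold higher in T210A than in Snf1 at low glucose (2.14 ± 0.12, adjusted p = 1.02e-08), a larger difference than the 0.90 of URA3.

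Genes of pyrimidine uptake and salvage, which recover bases and nucleosides, were lower at low glucose in 6 of 11 cases in each strain. Of 11 such genes 6 were lower and 0 higher in Snf1 (32.7% and 34.7% of all genes), 6 lower and 1 higher in Alpha1 (29.2% and 34.3%), and 6 lower and 4 higher in T210A (32.8% and 37.7%). The median difference was -0.66, -0.54 and -0.53 respectively, against 0.00 to 0.04 over all genes. The uridine permease gene FUI1 fell 8.95-fold in Snf1, 11.0-fold in Alpha1 and 10.5-fold in T210A. The purine-cytosine permease gene FCY2 fell 8.15-fold, 7.21-fold and 3.97-fold. The uracil permease gene FUR4 fell 6.49-fold in Snf1 (-2.70 ± 0.15), 3.31-fold in Alpha1 (-1.73 ± 0.15) and 1.53-fold in T210A (-0.61 ± 0.15). FUR4 signals at low glucose were 4.21, 4.43 and 4.52 in Snf1, 4.79, 5.32 and 4.91 in Alpha1, and 6.20, 5.96 and 6.01 in T210A, with no overlap between strains. The uracil phosphoribosyltransferase gene FUR1 fell 5.89-fold, 6.52-fold and 7.26-fold. FCY22 stayed at 2.26 on all arrays, close to the lowest signals of the table, and gives no information, although it is counted among the 11.

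At low glucose 6 of the 11 salvage genes were higher in T210A than in Snf1 and 0 lower (29.7% and 26.5% of all genes), and in Alpha1 3 were higher and 1 lower (17% and 12.9%). SDT1, a pyrimidine nucleotidase gene, had signals of 7.91, 7.94 and 8.14 in Snf1, 8.43, 8.46 and 8.66 in Alpha1, and 10.11, 9.98 and 10.08 in T210A. The 3 groups did not overlap, and SDT1 was 4.17-fold higher in T210A (2.06 ± 0.08, adjusted p = 4.40e-10) and 1.43-fold higher in Alpha1 (0.52 ± 0.08). The uridine nucleosidase gene URH1 was 4.56-fold higher in T210A (2.19 ± 0.37, adjusted p = 2.09e-04). In Alpha1 its signals of 6.01, 7.98 and 6.40 overlapped those of Snf1 and it was not called (0.71 ± 0.37). At high glucose 1 of the 11 was higher in T210A, FUR1 (0.69 ± 0.17, adjusted p = 0.0297), which lies on chromosome VIII, where the median difference was 0.74.

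**Figure D5:**
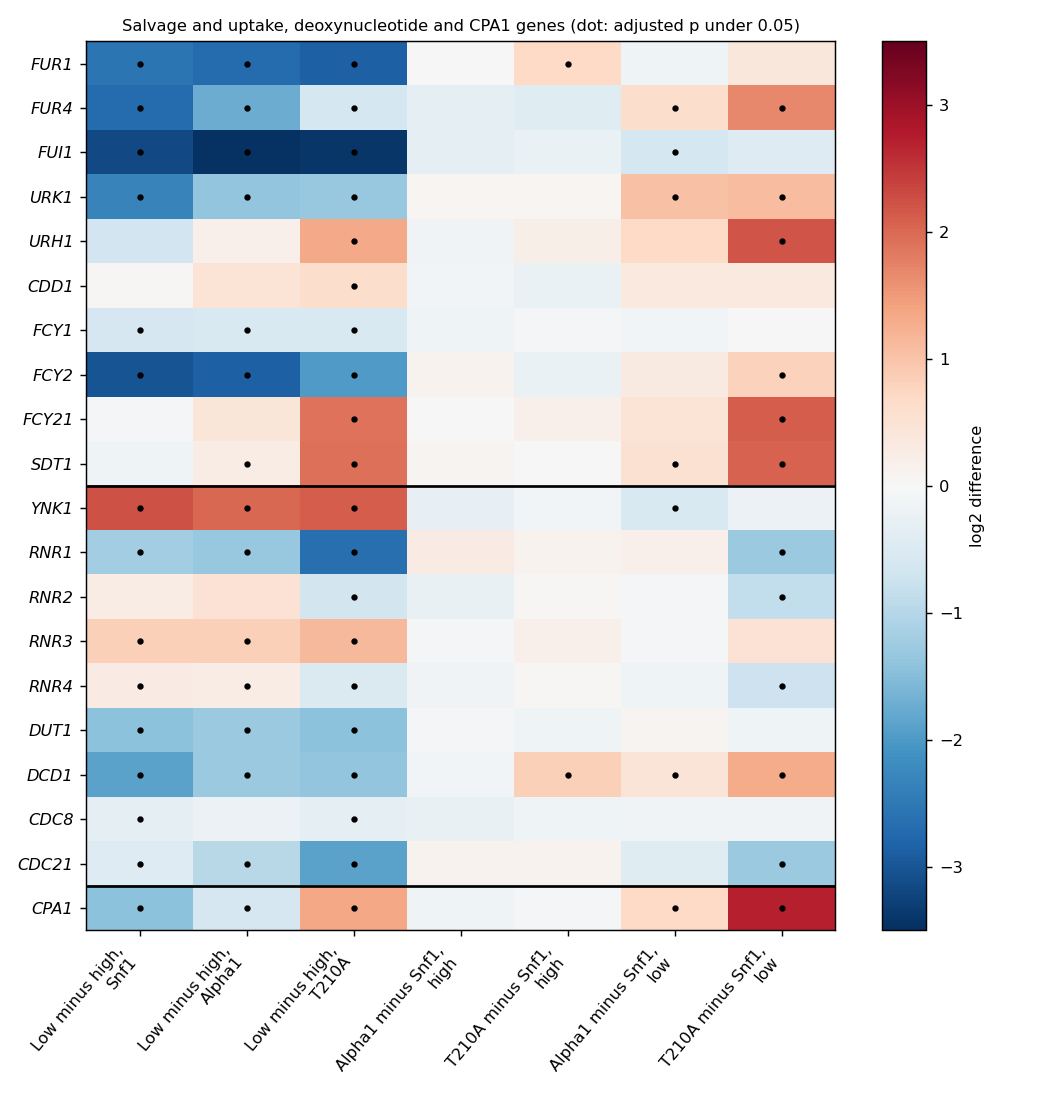
Log2 differences (colour) of the salvage and uptake genes, the nucleotide and deoxynucleotide genes and CPA1 in 7 comparisons, with lines between the lists and FCY22 left out because it was at the floor. Dots mark an adjusted p under 0.05. Salvage genes such as FUI1 and FCY2 are blue in the 3 glucose comparisons, and the high-glucose strain columns hold 2 dots, FUR1 and DCD1 in T210A.

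Nucleotide and deoxynucleotide genes did not move as 1 group. Of 9 genes 3 were higher and 5 lower at low glucose in Snf1, 3 and 4 in Alpha1, and 2 and 7 in T210A, beside all-gene shares of 34.7% and 32.7%, 34.3% and 29.2%, and 37.7% and 32.8%. YNK1, the nucleoside diphosphate kinase gene, rose 4.67-fold in Snf1, 3.99-fold in Alpha1 and 4.37-fold in T210A. RNR1, the large subunit gene of ribonucleotide reductase, fell 2.33-fold, 2.52-fold and 6.21-fold. CDC21, the thymidylate synthase gene, fell 1.37-fold, 1.98-fold and 3.66-fold. At low glucose T210A was below Snf1 for RNR1 (-1.31 ± 0.21), CDC21 (-1.31 ± 0.18), RNR2 (-0.87 ± 0.24) and RNR4 (-0.73 ± 0.10), and above it for the dCMP deaminase gene DCD1 (1.30 ± 0.08). DCD1 lies on chromosome VIII, where the median difference at low glucose was 0.57. Alpha1 had 1 of the 9 higher (DCD1, 0.45 ± 0.08) and 1 lower (YNK1, -0.52 ± 0.10).

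CPA1 encodes the small subunit of the second carbamoyl phosphate synthetase, which serves arginine synthesis. Its signals at low glucose were 8.57, 8.89 and 8.82 in Snf1, 9.23, 9.47 and 9.68 in Alpha1, and 11.37, 11.60 and 11.48 in T210A. The strains did not overlap, and CPA1 was 6.59-fold higher in T210A than in Snf1 (2.72 ± 0.15, adjusted p = 6.80e-09). From high to low glucose it fell by 1.43 ± 0.15 in Snf1 and by 0.59 ± 0.15 in Alpha1 and rose by 1.34 ± 0.15 in T210A. URA2, which makes carbamoyl phosphate for pyrimidines, was not called between T210A and Snf1 at low glucose (0.13 ± 0.11, interval -0.10 to 0.37).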

How the data were processed

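The values deposited for each sample come from 1 Affymetrix array and are log2 signals, 1 for every probe set, made by the authors with RMA and the affy package, per the submitters' processing notes. Steps beyond these names and their versions are not given in the sources used here. The table held 5716 probe sets, of which 5498 named 1 gene in the platform annotation and 218 named none. Symbols were updated through gene IDs, and for 47 genes the probe set with the highest mean was used, which left 5449 genes. No filter on dim genes was applied. Values ran from 2.25 to 14.3 and array medians from 6.77 to 7.03, and 0 sample columns were left unused. The number of arrays limits the precision.

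A mean per group was fitted to all 18 arrays with limma 3.58.1 in R 4.3.3 (12 residual degrees of freedom, moderated test, two-sided) for 9 contrasts of 2 groups and 3 differences between strains' glucose responses. Benjamini-Hochberg adjustment covered 5449 genes per comparison. The members and lists were chosen with earlier results of these data known. Named were the 10 members, called genes of the lists, SNF1, 4 measured genes on each side of URA3 and the 5 genes that correlated best with it. TRP1 was not analysed here. The fit was also run on simulated data in which a gene had the same spread in every group. The wider spread of Alpha1 at low glucose was therefore not covered by it.

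As a description, all 3 correlations of the deviations of same-numbered arrays from their group means exceeded 0.1 in 5 of the 9 contrasts. The labels do not state a pairing, and the main fit used none. The replicate number entered as a block in an alternative fit only, for every comparison. Alternatives were an intensity trend with a robust prior, the compared groups alone, the replicate block, quantile normalization, median centring, the omission of dim genes, averaging a gene's probe sets and the omission of each array.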

Additional observations from a re-analysis of the deposited data

Results flagged for a closer look

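The glucose response (low minus high) of 7 of the 10 genes differed in at least 1 of 3 strain comparisons by limma's test of the difference itself. Over all genes such differences were called for 13.7% (Alpha1 and Snf1), 39.5% (T210A and Snf1) and 20.3% (Alpha1 and T210A). Against Snf1, the Alpha1 response was higher for URA1 by 0.93 ± 0.19 (adjusted p = 0.0051), for URA7 by 1.57 ± 0.28 (0.0020) and for PPR1 by 1.02 ± 0.31 (0.0441).

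Against Snf1, the T210A response was higher for URA1 by 0.88 ± 0.19 (adjusted p = 0.0026), for URA3 by 1.25 ± 0.10 (1.00e-06), for URA5 by 0.32 ± 0.11 (0.0376), for URA7 by 1.25 ± 0.28 (0.0029), for URA10 by 1.83 ± 0.36 (0.0012) and for PPR1 by 1.48 ± 0.31 (0.0020). The Alpha1 response minus that of T210A was -0.55 ± 0.15 for URA2 (adjusted p = 0.0214) and -1.08 ± 0.10 for URA3 (1.04e-05). The URA2 call ended with the compared groups alone (adjusted p = 0.0538) and without Alpha1_high replicate 3 (0.0521), within a range of 6.89e-04 to 0.0538. The URA5 call ended in 3 alternatives and without any 1 of 9 arrays, with adjusted p-values from 0.0033 to 0.220 over all alternatives. The comparisons with Snf1 share its 6 arrays. URA3 is the gene among these whose response had opposite signs, -0.76 in Snf1 and 0.49 in T210A.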

How the results depend on the processing

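No call of the 10 genes changed direction under the alternatives run. Of 174 alternative values for URA3, 169 kept their side of the threshold, and of 1554 for the other 9 genes, 1478 did, with 46 calls ended and 30 gained. The count of called members between T210A and Snf1 at high glucose went from 1 to 0 with arrays centred on their medians or with the compared groups alone (URA3 at -0.35 and -0.34), and was 0 to 1 with 1 array left out (URA3 -0.41 to -0.29). With the compared groups alone it was 3 instead of 5 for Alpha1 against Snf1 at low glucose, 2 instead of 4 for Alpha1 against T210A at low glucose and 1 instead of 2 for the Alpha1 minus T210A response. With 1 array left out, the count was 2 to 4 for Alpha1 against T210A at low glucose, 2 to 6 for the Alpha1 minus Snf1 response and 1 to 3 for the Alpha1 minus T210A response. Quantile normalization gave a URA3 response difference between Alpha1 and Snf1 of 0.50, and the causes of these changes were not tested.

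All-gene counts moved by over 1.5 times in few cases. For Alpha1 against Snf1 at high glucose it was 84 with median centring and 19 to 30 without Snf1_high replicate 1, Alpha1_high replicate 2 or Alpha1_high replicate 3, against 50. With the compared groups alone it was 603 against 1632 (Alpha1 and Snf1, low glucose), 1244 against 2263 (Alpha1 and T210A, low glucose) and 491 against 746 (Alpha1 minus Snf1 response). The last count was 1158 without Alpha1_low replicate 1. The replicate block raised it from 344 to 543 for Alpha1 against T210A at high glucose. In the block fit URA3 differed by 1.57 between Alpha1 and Snf1 at high glucose. It changed 4 calls of the other 9 genes, all gained, namely PPR1 in T210A between glucose levels (-0.47), URA5 in Alpha1 at low glucose (0.20), URA8 for the T210A minus Snf1 response (-0.40) and URA10 for the Alpha1 minus T210A response (-1.02).

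Median centring moved the median of all genes by -0.12 and quantile normalization by -0.10 in the T210A glucose comparison, beside which the URA3 rise was 0.37 to 0.55 over the alternatives. Quantile normalization lowered the share of higher calls from 54.0% to 43.5% in Alpha1 and from 53.5% to 43.5% in T210A between glucose levels, and from 68.1% to 56.1% for the Alpha1 minus Snf1 response. PPR1 has no value with dim genes left out, since its mean lies below the first quartile of 5.55.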
